A study of Mus musculus with 6 samples.

Results

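The genes described here are 10 markers of neurons and astrocytes, namely Nefl, Nefm, Nefh, Snap25, Syt1, Tubb3, Uchl1, Stmn2, Prph and Gfap. They are known markers, picked with earlier results of these data known, and all 10 symbols were found among the 43472 gene symbols of the count tables. They were measured by RNA-seq in whole intervertebral discs (IVDs) of the thoracic and lumbar spine (T8-L5) at postnatal day 20, in 3 mutant and 3 control libraries, each from the pooled discs of 2 to 3 mice. Mutant mice were Col2Cre;Adgrg6 f/f on the C57B6/J strain. The study reports that Col2Cre recombines throughout the disc before birth, and its reporter mice place recombination also in the periosteum and in vertebral trabecular bone. Control pools of the same strain and age are wild type in the genotype labels, Col2Cre controls in the sample titles and Cre (-) littermates in the study's text, so the floxed alleles they carried are not clear. The comparison asks which transcripts of the disc differ when Adgrg6, an adhesion G protein-coupled receptor, is deleted before any overt histopathology.

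Neurofilaments are the intermediate filaments of axons and are built from a light, a medium and a heavy chain, the products of Nefl, Nefm and Nefh. Peripherin (Prph) is a related filament protein of neurons that project to the periphery, and glial fibrillary acidic protein (Gfap) is the filament of astrocytes, made also by some Schwann cells. SNAP25 and synaptotagmin 1 (Syt1) are part of the machinery that fuses synaptic vesicles with the membrane, Tubb3 is the neuronal beta-tubulin, Uchl1 a ubiquitin hydrolase abundant in neurons and neuroendocrine cells, and Stmn2 a regulator of microtubules in growing axons. Neuronal cell bodies lie in the spinal cord and in the ganglia along the vertebral column, and the inner part of a disc holds few nerve fibres.

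Each library held 9061491 to 12017008 counts on genes. The discs were rich in the cartilage transcript Col2a1, at 62708 to 124063 counts per 1000000 (CPM, with library sizes scaled by the TMM method) in every library. The targeted gene, listed as Gpr126, was at 124, 108 and 94.3 CPM in control replicates 1, 2 and 3 and at 138, 124 and 106 CPM in mutant replicates 1, 2 and 3, a log2 fold change of 0.17 (SE 0.18, edgeR adjusted p = 0.849). These counts cover the whole gene and not the deleted part alone. Control replicate 1 stood apart by skeletal muscle transcripts, since 6 muscle genes summed to 3609 CPM there and to 65.0 to 148 CPM in the other libraries. In bulk tissue, fewer cells of a type and less RNA per cell cannot be told apart.

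Gfap and the 3 neurofilament genes were higher in mutant IVDs, by log2 fold changes of 1.78 to 2.93, and no member was lower, at an unadjusted p under 0.05 in the quasi-likelihood test of edgeR. SE below is the error of a log2 fold change from that fit. Uchl1, Stmn2, Prph, Syt1 and Snap25 did not pass, and Tubb3 had no count in any library. Thus 4 of the 9 members tested were called, all higher in mutant IVDs. Of all 16152 genes tested, 7.21% were called in either direction, 2.89% higher and 4.32% lower. Since the members were not chosen blind to these data, their count is a description. Nefl, Nefm and Nefh passed the filter on low counts (count minimum 10) only with mutant libraries, where they were high. Their calls therefore carry no weight beyond a description. The median log2 fold change was 0.61 over the 9 members and -0.01 over all genes tested. Leaving out control replicate 3 moved the members' median to 1.30. Leaving out mutant replicate 1 left 2 members called, beside 817 of all 17179 genes tested in that fit. After adjustment over all genes, 0 of the 9 members passed in edgeR, which called 1 gene in all (0.00619%). DESeq2 called 4 members before adjustment (7.6% of all genes) and 0 after it (0.359% of all genes), and limma-voom called 3 (9.14% of all genes) and 0. Without the filter on low counts edgeR called 5 members, Syt1 being the one added and lower in mutant IVDs, beside 8.62% of 26418 genes, and 2 after adjustment (0.927% of all genes), Gfap and Nefm. The p-values measure the spread between these pools, each of them a biological replicate in the labels.

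**Figure D1:**
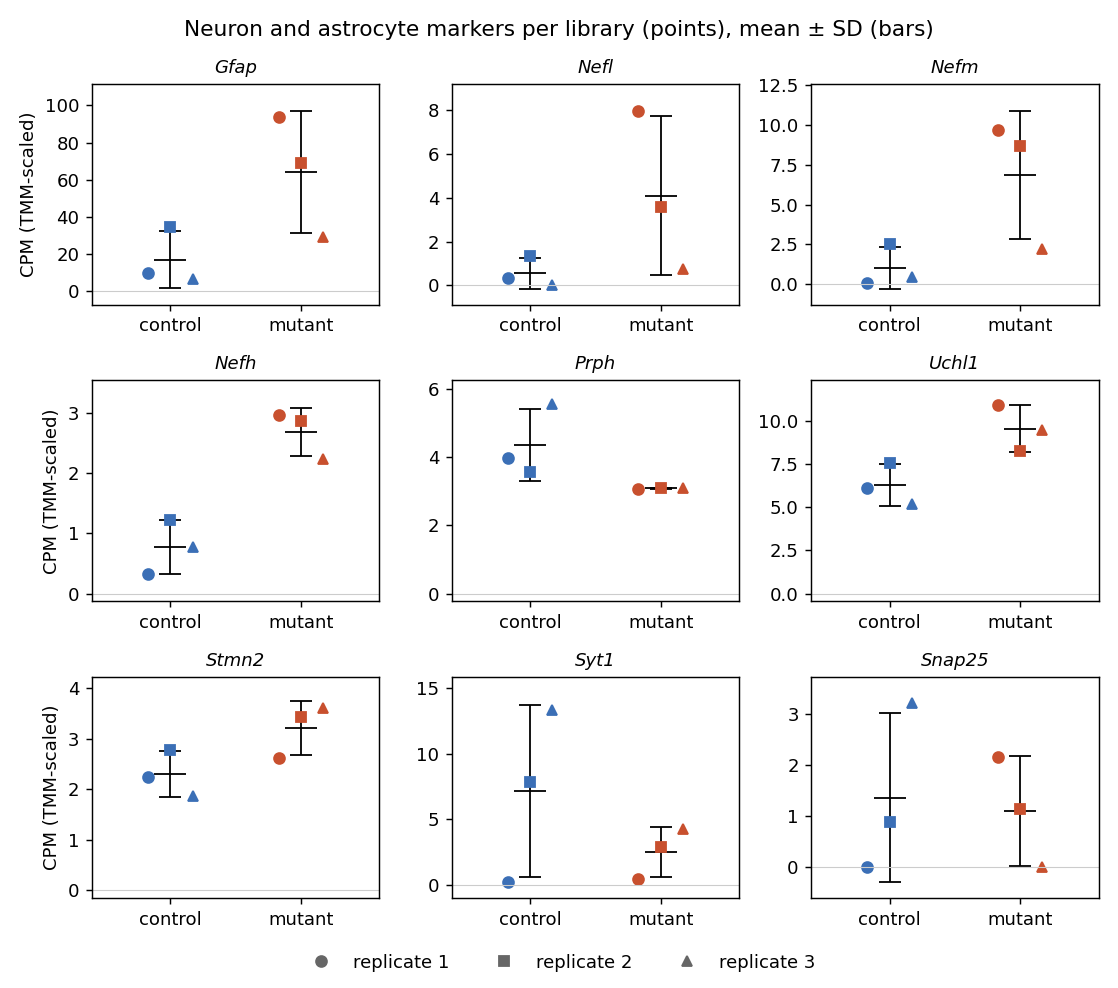
CPM of the 9 detected members in each of the 3 control (blue) and 3 mutant (orange) libraries, with the mean and SD of each genotype as black bars and a separate CPM axis for each gene. Nefh and Uchl1 lie higher in every mutant library than in every control library, as do 5.45% of all genes tested. Prph lies lower in every mutant library, as do 5.96% of all genes tested, and the other 6 genes overlap.

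Gfap, on chromosome 11 from 102887336 to 102900912 of GRCm38 (minus strand), had the most counts of the members over all libraries. Its RefSeq promoter is shown because Gfap is the member with the most counts and the smallest p, and the promoter of Prph is shown beside it as that of the related filament gene that lay lower in mutant IVDs. Both run from 250 bases before to 50 bases after the RefSeq start on GRCm38.p6, at chr11:102897151-102897450 (minus strand) for Gfap and at chr15:99054924-99055223 (plus strand) for Prph, and are written 5′ to 3′. Capitals mark matches to either of the 2 motifs searched on both strands, the palindrome TTCNNNGAA that STAT proteins bind and the TATA box core TATAAA.
Gfap: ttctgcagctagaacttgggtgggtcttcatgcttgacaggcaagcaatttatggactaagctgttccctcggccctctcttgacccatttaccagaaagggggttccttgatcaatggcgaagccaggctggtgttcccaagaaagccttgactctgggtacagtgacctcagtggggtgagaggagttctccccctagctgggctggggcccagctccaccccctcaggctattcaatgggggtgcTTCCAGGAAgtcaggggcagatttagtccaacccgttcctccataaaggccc
Prph: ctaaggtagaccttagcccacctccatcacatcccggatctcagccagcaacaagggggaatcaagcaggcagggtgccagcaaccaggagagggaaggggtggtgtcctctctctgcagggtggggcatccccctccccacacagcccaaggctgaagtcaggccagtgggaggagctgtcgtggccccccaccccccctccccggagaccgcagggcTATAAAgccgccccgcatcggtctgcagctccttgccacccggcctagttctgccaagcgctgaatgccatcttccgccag
The STAT palindrome has 1 match in the Gfap window, which begins at base -2 from the start, and 0 in the Prph window, whose TATA box core begins at base -31. Of 32817 mouse promoters of 300 bases, 8.29% hold the STAT palindrome and 13.6% the TATA core. RefSeq promoters were found for 5 of the 10 members, and those of Uchl1, Tubb3 and Syt1 hold 0 matches to either motif. A match is a description of these letters and not a bound site.

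Gfap was at 9.74, 34.5 and 6.49 CPM in control replicates 1, 2 and 3 and at 94.0, 69.0 and 29.0 CPM in mutant replicates 1, 2 and 3. Mutant replicates 1 and 2 were the highest, while control replicate 2 lay above mutant replicate 3, so the genotypes overlapped by this pair. Mean Gfap was 16.9 ± 15.3 CPM for control and 64.0 ± 32.8 CPM for mutant IVDs (SD, n = 3 each), a log2 fold change of 1.93 (SE 0.58, edgeR unadjusted p = 0.00776, adjusted p = 0.676). The 3 mutant libraries all lay above the control mean. With any 1 library left out, Gfap kept an unadjusted p under 0.05 in edgeR, with a log2 fold change from 1.54 to 2.98, the highest without control replicate 2. Over all alternatives its adjusted p ranged from 3.6e-05, without the filter on low counts, to 0.999. Gfap lies within Gm26668, a long noncoding gene of the opposite strand that shares none of its exon bases and had 1005 to 1850 counts per library.

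The neurofilament genes had far fewer counts than Gfap. Nefm, the medium chain, was counted 1, 23 and 6 times in control replicates 1, 2 and 3 and 85, 106 and 21 times in mutant replicates 1, 2 and 3. These are 0.107, 2.55 and 0.469 CPM in control and 9.67, 8.65 and 2.23 CPM in mutant IVDs. Mutant replicates 1 and 2 were again the highest, and control replicate 2 again lay above mutant replicate 3. The log2 fold change of Nefm was 2.74 (SE 0.88, edgeR unadjusted p = 0.0110, adjusted p = 0.676), and it was 4.43 without control replicate 2. In runs that reuse these libraries, and as a description only, its call was kept with each library left out and in every other alternative. The highest unadjusted p was 0.0461, in limma-voom.

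Nefl, the light chain, was counted 3, 12 and 0 times in control and 70, 44 and 7 times in mutant replicates 1, 2 and 3. In CPM these are 0.321, 1.33 and 0 in control and 7.97, 3.59 and 0.744 in mutant IVDs, where the count of 0 in control replicate 3 allows up to 0.235 CPM at 3 counts. Control replicate 2 exceeded mutant replicate 3 here too. The log2 fold change was 2.93 (SE 1.12, edgeR unadjusted p = 0.0254, adjusted p = 0.676). This call was lost without mutant replicate 1, where the log2 fold change was 2.05 (edgeR unadjusted p = 0.146), and in limma-voom (unadjusted p = 0.106), and without control replicate 2 the log2 fold change was 4.71.

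Nefl and Nefm are neighbours on chromosome 14. Nefl, from 68083863 to 68089095 on the plus strand, lies inside the annotated bounds of Nefm, from 68082590 to 68124846 on the minus strand, and the exons of both genes share 1108 bases, which is 32.8% of the exon bases of Nefl and 19.2% of those of Nefm. The library kit named by the study does not keep the strand of a transcript and the strand setting of the count is not given in the sources used here, so reads of either gene may be counted on the other. Tubb3, described below, shares 0 exon bases with Gm20388 in GENCODE M21, yet had 0 counts inside its bounds. Reads outside the 1108 shared bases may thus also be counted on the other gene of the pair. Genes inside Gm20388 were at 0 counts on its strand and not on the opposite strand, but the strand setting itself was not tested. How many reads fall in the shared bases or elsewhere in the bounds was not measured, and the calls of the pair may not be independent.

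Nefh, the heavy chain, lies elsewhere, on chromosome 11 from 4938754 to 4948064, and no annotated gene overlaps it. It was counted 3, 11 and 10 times in control and 26, 35 and 21 times in mutant replicates 1, 2 and 3, which is 0.321, 1.22 and 0.782 CPM against 2.96, 2.86 and 2.23 CPM. Every mutant library lay above every control library, as for 5.45% of all genes tested. The log2 fold change was 1.78 (SE 0.63, edgeR unadjusted p = 0.0173, adjusted p = 0.676). Leaving out mutant replicate 1 gave an unadjusted edgeR p of 0.0580 and leaving out mutant replicate 2 one of 0.0611, and the log2 fold change remained between 1.45 and 2.22 with any 1 library left out.

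**Figure D2:**
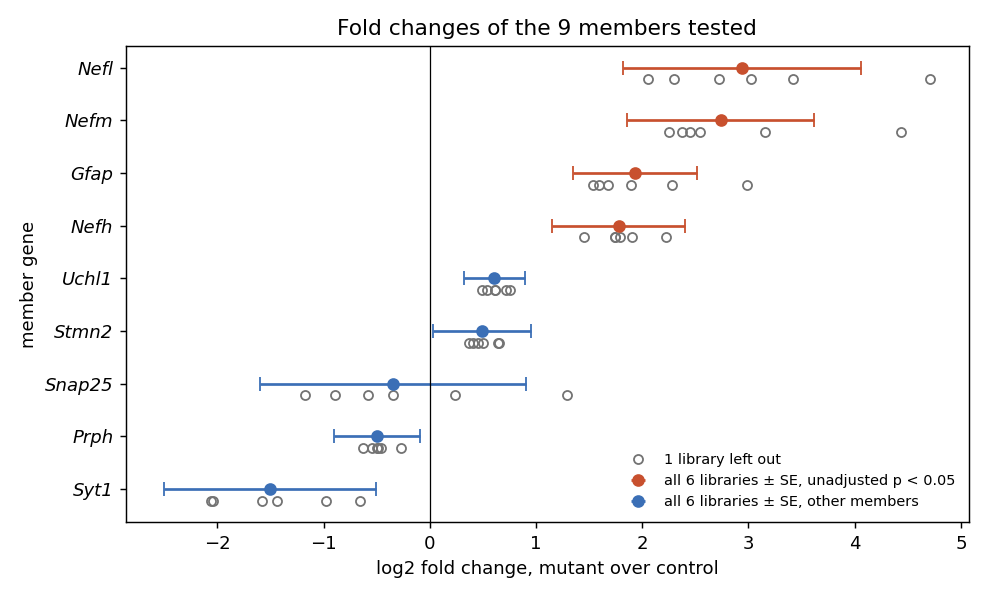
Log2 fold changes of mutant over control IVDs for the 9 members tested with edgeR, as filled points with the standard error from all 6 libraries (orange at an unadjusted p under 0.05) and as open circles with 1 library left out in turn. The 4 called members lie between 1.78 and 2.93, and the circles of Snap25 lie on both sides of 0.

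Peripherin did not go with the other filament genes. Prph, on chromosome 15 from 99055174 to 99058978, was at 3.96, 3.55 and 5.55 CPM in control replicates 1, 2 and 3 and at 3.07, 3.10 and 3.08 CPM in mutant replicates 1, 2 and 3. All 3 mutant libraries lay below all control libraries, as for 5.96% of the genes tested, and control replicate 3 was the highest. The log2 fold change of -0.50 did not pass (SE 0.40, edgeR unadjusted p = 0.244, adjusted p = 0.807).

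Uchl1 and Stmn2 are both broadly neuronal. Uchl1, on chromosome 5 from 66676091 to 66687234, was at 6.10, 7.55 and 5.16 CPM in control and at 10.9, 8.24 and 9.46 CPM in mutant replicates 1, 2 and 3. It lay higher in every mutant than in every control library, as for 5.45% of all genes tested. Its log2 fold change was 0.61 (SE 0.29, edgeR unadjusted p = 0.0612, adjusted p = 0.699), and edgeR gave an unadjusted p = 0.0493 with control replicate 2 left out. A gene of the opposite strand, Uchl1os, shares 295 of its 1632 exon bases and had 13 to 55 counts per library. Stmn2, on chromosome 3 from 8509360 to 8561606, was at 2.25, 2.78 and 1.88 CPM in control and at 2.62, 3.43 and 3.61 CPM in mutant replicates 1, 2 and 3. Control replicate 2 exceeded mutant replicate 1, and the log2 fold change was 0.49 (SE 0.46, edgeR unadjusted p = 0.315, adjusted p = 0.831).

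The synaptic genes varied widely within each genotype. Syt1, on chromosome 10 from 108497650 to 109010982, was counted 2, 71 and 171 times in control and 4, 35 and 40 times in mutant replicates 1, 2 and 3, or 0.214, 7.88 and 13.4 CPM against 0.455, 2.86 and 4.25 CPM. Control replicates 2 and 3 were above all mutant libraries and control replicate 1 below them all. The log2 fold change was -1.50 (SE 0.996, edgeR unadjusted p = 0.162, adjusted p = 0.780). Without control replicate 1, the library with the muscle transcripts, it was -2.04 (edgeR unadjusted p = 0.00708, adjusted p = 0.157). Snap25, on chromosome 2 from 136713453 to 136782428, had 0, 8 and 41 counts in control and 19, 14 and 0 counts in mutant replicates 1, 2 and 3, or 0, 0.888 and 3.21 CPM against 2.16, 1.14 and 0 CPM. Each genotype thus held a library without a count, and the log2 fold change of -0.35 (SE 1.25, edgeR unadjusted p = 0.786, adjusted p = 0.964) became 1.30 without control replicate 3.

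Tubb3, on chromosome 8 from 123411424 to 123422015, had 0 counts in all 6 libraries. It lies inside Gm20388, which is annotated on the same strand from 119910841 to 124345722 and had 11860 to 24947 counts per library. All 36 protein-coding genes that lie inside Gm20388 on its strand were at 0 counts throughout, and 0 of the 35 on the opposite strand were. The value of Tubb3 is therefore no measure of its transcript here, and neither an upper limit nor a fold change is given.

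Per kilobase of exon and averaged over the 6 libraries, the level of Gfap was 9.59 CPM per kb, that of Uchl1 4.84 and that of Prph 1.86. This order did not hold in every library, since Uchl1 lay above Gfap in control replicates 1 and 3 and Prph above Gfap in control replicate 3. The other 6 detected members lay from 0.182 for Snap25 to 0.688 for Nefl, and their ranges over libraries overlapped. On this scale Gfap rose from a mean of 4.01 CPM per kb in control to 15.2 in mutant IVDs, and Uchl1 went from 3.84 to 5.85 without passing the test. Within a library, where no scaling between libraries is needed, the log2 ratio of Gfap to Uchl1 counts was 0.67, 2.19 and 0.33 in control and 3.11, 3.07 and 1.62 in mutant replicates 1, 2 and 3. Control replicate 2 lay above mutant replicate 3 in this ratio as well. The log2 ratio of Gfap to Mbp counts was -5.21 ± 1.01 in control and -4.96 ± 0.23 in mutant IVDs, that of Gfap to the central myelin gene Mobp -2.20 ± 1.17 and -2.24 ± 0.54, that of Gfap to Nefh 4.27 ± 1.05 and 4.43 ± 0.66, and that of Gfap to Nefm 4.69 ± 1.58 and 3.33 ± 0.35 (SD, n = 3 each). The means of each of these 4 ratios differed by less than the SD of the control libraries, and those of Gfap to Mbp and to Nefm by more than the SD of the mutant libraries.

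Markers of other cells of nervous tissue were measured beside the members. Over the 87 genes tested of all lists, muscle, red cell and disc genes included, edgeR gave adjusted p-values from 0.553 (Slc4a1) to 0.997, so the calls among them rest on unadjusted p-values. Of 13 genes of oligodendrocytes, the cells that make central myelin, 10 were tested and 1, Olig1, a transcription factor of that lineage, was called higher in edgeR and DESeq2 but not in limma-voom (log2 fold change 2.30, SE 0.72, edgeR unadjusted p = 0.00918). It was at 0.963, 2.44 and 0.625 CPM in control and at 11.04, 6.855 and 1.81 CPM in mutant replicates 1, 2 and 3. Olig1 too passed the filter on low counts only with mutant libraries, where it was high. The list summed to 317, 1967 and 641 CPM in control and 3999, 3017 and 1007 CPM in mutant replicates 1, 2 and 3, and its median log2 fold change was 0.18. Most of this was Mbp, the myelin basic protein gene, at 168, 1509 and 439 CPM in control and 3317, 2274 and 755 CPM in mutant replicates 1, 2 and 3. Mbp did not pass, with a log2 fold change of 1.58 (SE 0.72, edgeR unadjusted p = 0.0522). From high to low, Gfap, Nefl, Nefm, Mbp and Olig1 had the same first 4 libraries, mutant replicates 1 and 2, control replicate 2 and mutant replicate 3. The part of central myelin transcripts, and of the cells that carry them, in the difference of the 4 called members was not tested.

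**Figure D3:**
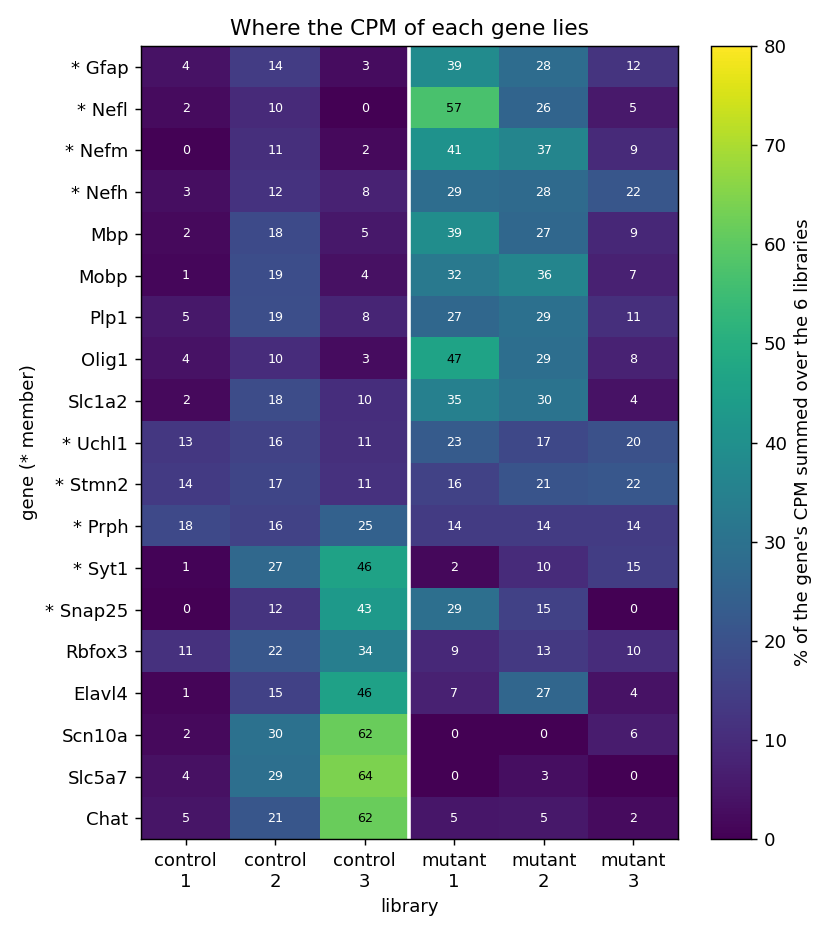
Percentage of each gene's CPM, summed over the 6 libraries, that lies in each library, for the 9 detected members (asterisks) and 10 markers of nervous tissue. Mutant replicate 1 holds 38.7% of Gfap, 57.1% of Nefl and 39.2% of Mbp, while control replicate 3 holds 46.1% of Syt1, 43.3% of Snap25 and 64.3% of Slc5a7.

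Other astrocyte markers did not rise with Gfap as a list. All 12 were tested, 0 had an unadjusted p under 0.05 in edgeR, 1 (Gja1) was called higher in DESeq2 and in limma-voom, 2 were called higher and 1 lower in edgeR without control replicate 1, and the median log2 fold change was -0.12. The most abundant, Fgfr3, at 217 to 525 CPM, is also made by chondrocytes, as are S100b and Gja1. Slc1a2, the main glutamate transporter of astrocytes, was at 0.963, 8.66 and 4.92 CPM in control and 16.3, 14.3 and 1.81 CPM in mutant replicates 1, 2 and 3 (log2 fold change 1.16, SE 0.78, edgeR unadjusted p = 0.168). It was thus high in the same mutant pools 1 and 2 as Gfap but not in mutant replicate 3. Aqp4, the astrocyte water channel, was at 0.106 to 2.61 CPM.

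Of 25 other neuronal genes, 21 were tested, with 1 higher and 2 lower in mutant IVDs and a median log2 fold change of 0.10. The vesicle gene Syt2 was higher (27.1 ± 3.96 CPM in control and 37.2 ± 6.99 CPM in mutant IVDs, SD, n = 3 each, log2 fold change 0.46, edgeR unadjusted p = 0.0403). Rbfox3, which encodes the neuronal nuclear protein NeuN, was lower (10.7 ± 5.41 and 5.20 ± 0.962 CPM, log2 fold change -1.04, edgeR unadjusted p = 0.0256), as was Stx1a, a membrane partner of SNAP25 (50.4 ± 8.74 and 34.7 ± 1.65 CPM, log2 fold change -0.54, edgeR unadjusted p = 0.0107). Rbfox3 was also called lower by DESeq2, by limma-voom and without control replicate 1 in edgeR, while Stx1a lost its call without that library and Syt2 was not called by DESeq2. Vamp2, a vesicle partner of SNAP25 and the most abundant of the list, was at 87.7 ± 12.6 CPM in control and 114 ± 14.2 CPM in mutant IVDs (edgeR unadjusted p = 0.0662). Every mutant library lay above every control library in Vamp2, as for 5.45% of all genes tested. Vamp2 was called higher by limma-voom and without control replicate 1 in edgeR. Thy1, a surface protein of neurons and of fibroblasts, was called higher by both of these and by DESeq2, at 11.7 ± 6.09 CPM in control and 20.4 ± 7.08 CPM in mutant IVDs (SD, n = 3 each, log2 fold change 0.80, edgeR unadjusted p = 0.0556). Without control replicate 1 edgeR also called Sncg, the gamma-synuclein gene, lower, beside Rbfox3. Summed over the list, control libraries were at 367 to 373 CPM and mutant libraries at 364 to 414 CPM, a sum set by the abundant genes, while Elavl4, an RNA-binding protein of neurons, ranged from 0.107 to 4.92 CPM.

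Most markers of sensory, sympathetic and central neurons had too few counts to be tested. Of 13 genes of sensory and sympathetic neurons 3 were tested, 0 of them were called by edgeR, DESeq2 or limma-voom at an unadjusted p under 0.05, and Tac1 had no count in any library. Avil, the most abundant, was at 10.1 to 17.7 CPM. Of 11 genes of central neurons 1, Camk2a, was tested and not called in edgeR or DESeq2, though limma-voom called it higher (7.66 to 18.6 CPM, edgeR unadjusted p = 0.178), and Slc18a3, which lies inside Chat on the same strand, is listed at 0. Among those too low to be tested, Slc5a7, the choline transporter of cholinergic neurons, had 2, 15 and 47 counts in control and 0, 2 and 0 counts in mutant replicates 1, 2 and 3. Scn10a, a sodium channel of sensory neurons, had 1, 14 and 41 counts in control and 0, 0 and 3 in mutant replicates 1, 2 and 3. Chat, which makes acetylcholine, had 2, 9 and 37 counts in control and 2, 3 and 1 counts in mutant replicates 1, 2 and 3. These 3 genes, named after their values were seen, were highest in control replicate 3 and next in control replicate 2, the libraries that were also highest in Syt1. Without control replicate 1, edgeR tested 5 of the sensory and sympathetic genes and called 2 lower (Scn10a and Th), and tested 6 of the central genes and called 2 lower (Slc5a7 and Slc6a5). All 4 passed the filter on low counts only through control replicates 2 and 3, where they were high, so these calls carry no weight. Their part in the values of Syt1 and Snap25 was not tested.

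**Figure D4:**
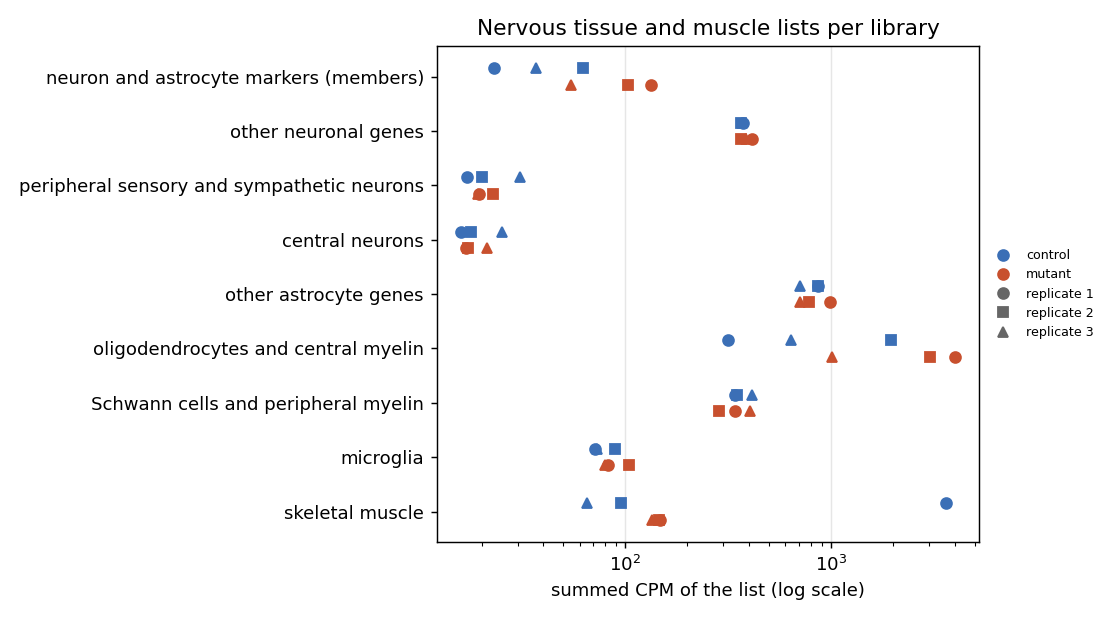
Summed CPM of the 10 members and of 8 other marker lists in each library, on a log axis, with control libraries in blue, mutant libraries in orange and a symbol for each replicate number. The oligodendrocyte and central myelin list spans 317 to 3999 CPM, and the muscle list is high in control replicate 1 alone, at 3609 CPM.

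Of 12 Schwann cell and peripheral myelin genes, 11 were tested, 0 were called higher by edgeR, DESeq2 or limma-voom and 1, Ncmap, a membrane protein of myelinating Schwann cells, was called lower by each, but not without control replicate 1 in edgeR (140 ± 22.4 CPM in control and 96.4 ± 17.9 CPM in mutant IVDs, SD, n = 3 each, log2 fold change -0.54, edgeR unadjusted p = 0.0237). Ngfr, a neurotrophin receptor of Schwann cells, lay higher in every mutant library than in every control library, as for 5.45% of all genes tested. It did not pass (1.61, 1.78 and 2.58 CPM in control and 5.01, 2.94 and 3.82 CPM in mutant replicates 1, 2 and 3, log2 fold change 0.97, edgeR unadjusted p = 0.0699). The list summed to 341 to 415 CPM in control and 286 to 402 CPM in mutant libraries. Pmp22, a peripheral myelin protein made by many tissues, was the most abundant, at 110 to 165 CPM. Of 6 microglial genes, 3 were tested, and Tmem119, which osteoblasts also make, was called higher (19.0 ± 4.13 and 32.4 ± 10.5 CPM, log2 fold change 0.77, edgeR unadjusted p = 0.0138). Among 5 related filament genes, Vim, the vimentin gene of connective tissue cells, was at 1795 to 4487 CPM and did not pass (log2 fold change 0.40, edgeR unadjusted p = 0.240), and Des, the filament of muscle, was called lower (log2 fold change -2.08, edgeR unadjusted p = 0.0446) with 127 CPM in control replicate 1 and 5.24 to 13.2 CPM elsewhere. DESeq2, limma-voom and edgeR without control replicate 1 did not call Des, limma-voom called Vim and Nes, the nestin gene, higher, and edgeR without control replicate 1 called Nes higher. Control replicate 1 also set the calls of the muscle list, where Acta1, Ckm, Myh1, Myh4, Mylpf and Tnnt3 were all called lower by edgeR with it and 0 without it, when 3 of the 6 were called higher. With all libraries DESeq2 called 1 of the 6 lower, Myh4, and limma-voom called 0. Of 6 red blood cell genes 1, Slc4a1, the anion exchanger of red cells, was called higher (2.49 ± 1.77 and 15.9 ± 10.2 CPM, log2 fold change 2.68, edgeR unadjusted p = 0.00114), and the most abundant, Hba-a1, was at 13.9 to 182 CPM. All 6 had positive log2 fold changes, and limma-voom and edgeR without control replicate 1 each called all 6 higher. The part of red cell transcripts in the difference of the members was not tested. Of 9 disc and cartilage genes 1, the collagen gene Col1a1, was called higher (8222 ± 4498 and 17073 ± 4810 CPM, log2 fold change 1.05, edgeR unadjusted p = 0.0429), as by DESeq2, by limma-voom and without control replicate 1, which also called Col1a2.

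Among the other genes tested, 5 were named for each of Gfap and Nefm by the Pearson correlation of their log2 CPM over the 6 libraries, as a description only, since 16143 genes were compared over few libraries that share depth and tissue. Those most like Gfap were Arl2bp, Foxred2, Cramp1l, Ccrn4l and RP24-325N3.1, at 0.978 to 0.985. Those most like Nefm were Foxred2, Cutc, Ntsr2, B2m and Wif1, at 0.985 to 0.993. Ntsr2, a neurotensin receptor of astrocytes, was at 0.321, 1.55 and 0.782 CPM in control and at 2.73, 2.37 and 1.38 CPM in mutant replicates 1, 2 and 3. Wif1, a secreted Wnt inhibitor, was at 269, 453 and 303 CPM in control and 528, 519 and 435 CPM in mutant replicates 1, 2 and 3. For Syt1, added after its values were seen, the nearest genes were Dner, Rps27rt, Fmn1, Grm5 and Atp10b, at 0.985 to 0.996.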

How the data were processed

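The authors deposited raw counts per gene symbol for each library, and a table of their own comparison (size-factor-scaled counts, fold changes and p-values) that was not used. Libraries were paired-end and made from poly(A) RNA. The study's methods name Cutadapt and HISAT2 with GRCm38.88, while the submitters' processing notes name STAR 2.5.3a, HTSeq and DESeq2, so the aligner is not settled, and the strand setting is not given in the sources used here. Reads that named no gene, 55.8% to 59.6% of each library, were left out of library sizes. With no molecular identifiers, limits from depth cover counting error only.

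Counts were fitted with the quasi-likelihood test of edgeR 4.0.16 in R 4.3.3 after TMM normalization and filterByExpr (count minimum 10), with Benjamini-Hochberg adjustment over 16152 genes. The filter removed no member with a count. A standard error is the log2 fold change divided by the square root of F. The fit was tested on simulated data. Alternatives were RLE size factors, no filter, a replicate block, DESeq2 1.42.0, limma-voom (limma 3.58.1) and leaving out each library. Gene positions and exon lengths came from GENCODE M21 (GRCm38) and promoters from RefSeq (GRCm38.p6).

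The members and all marker lists were chosen with earlier results of these data known. Genes named are the members, each list gene at an unadjusted p under 0.05, the most abundant gene of each list, and the 5 genes most correlated with Gfap and with Nefm. Others were named after their values were seen. A few list genes are not reported here.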

Additional observations from a re-analysis of the deposited data

How the results depend on the processing

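Leaving out 1 library moved the count of genes at an unadjusted p under 0.05 in edgeR between 618 and 2427, the count at an adjusted p under 0.05 between 0 and 31, the number of members called between 2 and 5, and the median log2 fold change of the members between 0.61 and 1.30. The lowest and highest gene counts were those without control replicate 3 and without control replicate 1, and the median of 1.30 was that without control replicate 3. The 2 called members were those without mutant replicate 1, where 817 of 17179 genes were called. Without the filter on low counts edgeR called 2276 genes, 245 of them after adjustment. The adjusted count was 58 with DESeq2, 0 with limma-voom and 0 with the replicate block. Deviations of log2 CPM from the group means correlated at 0.159, -0.132 and 0.101 between control and mutant libraries of the same number. Between libraries of unlike number these correlations ran from -0.265 to 0.179. With 3 libraries a genotype these values cannot tell whether same-numbered libraries were paired. With the replicate block edgeR called 1002 genes and 4 members, with a median log2 fold change of 0.61. The log2 fold change of Snap25, from -1.18 to 1.30 with 1 library left out, changed sign with the block (0.019), without control replicate 3 (1.30) and without mutant replicate 3 (0.24). At an unadjusted p under 0.05, Gfap, Nefm, Stmn2 and Prph kept their direction and their side of the threshold in all 11 alternatives, and without the filter Gfap (3.6e-05) and Nefm (0.0089) also passed at the adjusted p of edgeR. These alternatives reuse the same libraries, so they add no weight to the call of Nefm. Nefl and Nefh each lost the call in 2, and Syt1 gained one in 2 and Uchl1 in 1. The cause of these shifts was not tested. Depth limits the low members, Nefl, Nefh, Snap25 and Stmn2 having at most 70 counts in any library.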
